A study of Homo sapiens with 18 samples.

Results

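SEMA3A and 9 genes of the same ligand and receptor system were described across all conditions of a cell culture experiment. The 4 class 3 semaphorins were SEMA3A, SEMA3B, SEMA3C and SEMA3F, and the 6 receptor genes were the neuropilins NRP1 and NRP2 and the plexins PLXNA1, PLXNA2, PLXNA3 and PLXND1. These 10 genes, of 60483 in the table, were found by matching gene identifiers to symbols, and all 10 had a mean of at least 1 TPM, a transcript level corrected for gene length and library size. SEMA3A was chosen by measured values, since its fall with stearate had been noted in these same samples, so its differences between stearate and the other groups are given as a description with no test. The other 9 genes were listed because they belong to the same family.

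Class 3 semaphorins are the secreted members of the semaphorin family, and they were first known for steering growing axons. Most of them bind a neuropilin, which holds the ligand, and signal through an A-type or D-type plexin, which carries the signal across the membrane and collapses the actin cytoskeleton. In epithelial tumours SEMA3A, SEMA3B and SEMA3F are commonly described as restraining growth or vessel formation, SEMA3C as promoting growth, and the neuropilins also serve as coreceptors of vascular endothelial growth factor (VEGF).

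OVCAR5 is an established human cell line that the labels describe as high grade ovarian serous adenocarcinoma, wild type in genotype. All cells, controls included, were kept for the 24 h of treatment in medium with albumin free of fatty acids, and received 50 µM stearate, 50 µM oleate or neither, each with 1 µM CAY10566 or with its vehicle DMSO. Stearoyl-CoA desaturase converts stearate, which is saturated, into the monounsaturated oleate, and CAY10566 blocks this enzyme. The comparison of these conditions asks how the 2 fatty acids and the inhibitor of their conversion alter gene expression. The 3 conditions with vehicle (DMSO, stearate+DMSO, oleate+DMSO) and the 3 with inhibitor (CAY10566, stearate+CAY10566, oleate+CAY10566) had 3 replicates each, 18 samples in all. Control, stearate and oleate below are groups of 6 samples that pool those with and without CAY10566.

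TPM divides by transcript length and sums to the same total in each sample, so levels may be compared between genes, but the number of reads behind a value is unknown. The labels do not state whether replicates came from separate cultures, so p-values measure the spread between these samples, which may be technical. Of 6 epithelial markers, 6 were at 1 TPM or more, and their summed level was 2992 to 3134 TPM in control, 2410 to 2602 in stearate and 2729 to 3045 in oleate samples. Of 7 markers of ovarian serous carcinoma 3 reached a mean of 1 TPM (PAX8, FOLR1 and MSLN), and WT1 and SOX17 were near 0. Of 5 intestinal epithelial markers 2 did, CDX2 at 3.76 TPM and KRT20 at 1.69 TPM. The endothelial list had 0 of 3 markers at 1 TPM, with a summed level of 1.11 to 1.7 TPM in control, 0.53 to 0.89 in stearate and 1.46 to 2.39 in oleate samples. The fibroblast list had 1 of 4 (COL1A1) and the leukocyte list 1 of 3 (CD68). In control, stearate and oleate samples the summed leukocyte level was 83.05 to 110.7, 81.88 to 89.81 and 96.11 to 113.2 TPM, and the fibroblast level 3.1 to 5.45, 3.99 to 6.49 and 3.81 to 7.17 TPM. The summed level in the same order was 14.78 to 18.91, 14.2 to 18.6 and 16.41 to 22.56 TPM for the ovarian list and 4.44 to 6.83, 4.41 to 6.95 and 5.2 to 6.12 TPM for the intestinal list. The epithelial and endothelial levels in stearate lay below all other samples, as did the leukocyte level against oleate, and their part in the results was not tested. A pair of libraries stood apart for these genes. CAY10566 replicate 3 was the highest control sample for 9 of the 10 genes and for 40.4% of all tested genes, and oleate+DMSO replicate 3 was the highest oleate sample for 6 of the 10 and for 25.2% of all tested genes. Calls that change without either are given with and without it. Stearate+DMSO replicate 1 was the highest stearate sample for 31.4% of all tested genes but for 3 of the 10; without it the stearate differences of NRP2 (adjusted p = 0.0916) and PLXNA3 (adjusted p = 0.0517, limma) did not pass.

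SEMA3F was the most abundant ligand and SEMA3C the least abundant. The mean over 18 samples was 24.9 TPM for SEMA3F, 16.4 TPM for SEMA3B, 7.71 TPM for SEMA3A and 4.09 TPM for SEMA3C. Among the receptors NRP1 was the most abundant at 91.7 TPM, higher than 88.8% of the 13789 tested genes, and NRP2 stood at 9.27 TPM. PLXNA1 was the leading plexin at 42.7 TPM, followed by PLXND1 at 13.1 TPM, PLXNA3 at 10.2 TPM and PLXNA2 at 6.96 TPM. Of the remaining class 3 genes, SEMA3D, SEMA3E, SEMA3G and the plexin PLXNA4 had means between 0.00556 and 0.638 TPM and were not tested.

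SEMA3A, the founding class 3 ligand, which binds NRP1, was low in every stearate sample. In stearate+DMSO the 3 replicates were at 3.68, 3.16 and 2.65 TPM, and in stearate+CAY10566 at 3.53, 3.75 and 3.36 TPM. The DMSO replicates were at 9.94, 8.05 and 7.06 TPM and the CAY10566 replicates at 9.04, 9.46 and 10.52 TPM. The oleate+DMSO replicates were at 10.53, 11.14 and 8.74 TPM and the oleate+CAY10566 replicates at 10.99, 10.64 and 12.57 TPM. The highest stearate sample thus lay below the lowest control and the lowest oleate sample. In a bulk sample, fewer cells that express a gene and less RNA per cell cannot be told apart.

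The SEMA3A mean was 9.01 ± 1.27 TPM (SD, n = 6) in control, 3.36 ± 0.407 TPM (SD, n = 6) in stearate and 10.8 ± 1.24 TPM (SD, n = 6) in oleate. On the log2(TPM + 1) scale, which understates the change of genes at low TPM, stearate was below control by a difference of -1.20 (0.436-fold) and below oleate by a difference of -1.43. The difference from control was -1.16 among samples with DMSO and -1.23 among those with CAY10566. Ordered by condition mean, SEMA3A ran from stearate+DMSO (3.16 ± 0.515 TPM) through stearate+CAY10566 (3.55 ± 0.196), DMSO (8.35 ± 1.46), CAY10566 (9.67 ± 0.763) and oleate+DMSO (10.14 ± 1.247) to oleate+CAY10566 (11.4 ± 1.03; SD, n = 3 for each). Neighbours in this order had overlapping replicates, except for the step from stearate+CAY10566 to DMSO.

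**Figure D1:**
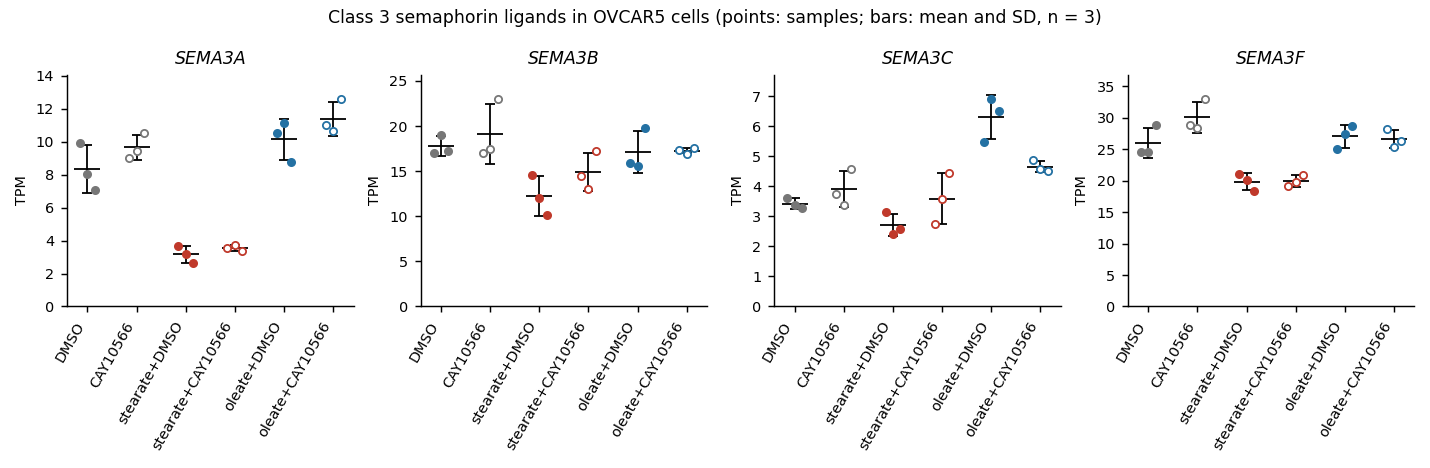
Expression of SEMA3A, SEMA3B, SEMA3C and SEMA3F (vertical axes, TPM from 0) in the 6 conditions; points are samples, filled with DMSO and open with CAY10566, and bars give the mean and SD of 3 replicates. The 6 stearate samples of SEMA3A, at 2.65 to 3.75 TPM, and of SEMA3F, at 18.41 to 21.06 TPM, sit below all control and oleate samples, while SEMA3C is highest in the 3 oleate+DMSO samples.

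For oleate against control SEMA3A did not pass the test. The control samples used here also entered the fall for which SEMA3A was chosen, so this test is not independent of that choice. The difference was 0.24 on the log2 scale (95% interval 0.04 to 0.43; limma, adjusted p = 0.0659), with overlapping groups. This call turned on single libraries: the difference was 0.28 (adjusted p = 0.0265) without CAY10566 replicate 3 and 0.29 (adjusted p = 0.0328) without oleate+DMSO replicate 3, and it passed with CAY10566 as a covariate (adjusted p = 0.042).

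SEMA3F, a ligand that prefers NRP2, was also lower with stearate. The DMSO replicates were at 24.57, 24.60 and 28.81 TPM and the CAY10566 replicates at 28.85, 28.47 and 32.95 TPM, against 21.06, 20.09 and 18.41 TPM in stearate+DMSO and 19.10, 19.84 and 20.98 TPM in stearate+CAY10566. The oleate samples ranged from 25.11 to 28.71 TPM with a median of 26.8 TPM. All 6 stearate samples lay below all 12 others. The mean was 28.0 ± 3.14 TPM in control, 19.9 ± 1.04 TPM in stearate and 26.8 ± 1.49 TPM in oleate (SD, n = 6 for each), and stearate differed from control by -0.47 (SE 0.06; limma, adjusted p = 3.42e-05) and from oleate by -0.41 (adjusted p = 8.89e-05) on the log2 scale. Both calls held in each of the 27 alternatives run for them. Oleate did not pass against control (-0.06, adjusted p = 0.543).

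SEMA3B, whose gene lies 78.5 kb beyond the end of SEMA3F on the same strand of chromosome 3, fell with stearate as well. Its 6 stearate samples had a lowest, median and highest level of 10.16, 13.8 and 17.23 TPM, against 17.00, 17.3 and 22.95 TPM in control and 15.60, 17.2 and 19.75 TPM in oleate. The stearate+CAY10566 replicate at 17.23 TPM reached into the control range, so the groups overlapped. The difference from control was -0.42 (SE 0.10; limma, adjusted p = 0.00552), and that from oleate was -0.33 (adjusted p = 0.022). With only the CAY10566 samples the difference from control was -0.33 (adjusted p = 0.173), and that from oleate did not pass without stearate+DMSO replicate 2 (adjusted p = 0.0504), stearate+DMSO replicate 3 (adjusted p = 0.0539) or oleate+DMSO replicate 3 (adjusted p = 0.0558), with no filter on TPM (adjusted p = 0.0561) or with the CAY10566 samples only (-0.21, adjusted p = 0.383).

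SEMA3C, which binds both neuropilins and PLXND1, moved with oleate instead. The oleate+DMSO replicates were at 5.47, 6.89 and 6.52 TPM and the oleate+CAY10566 replicates at 4.86, 4.57 and 4.51 TPM. The 6 control samples had a lowest, median and highest level of 3.26, 3.51 and 4.56 TPM, and the 6 stearate samples of 2.42, 2.94 and 4.43 TPM. All oleate samples were above all stearate samples, and the lowest oleate sample was just under the highest control sample, CAY10566 replicate 3. The rise over control was 0.46 (SE 0.12; limma, adjusted p = 0.00902), and stearate was below oleate by a difference of -0.64 (SE 0.12; adjusted p = 0.000646). The difference between stearate and oleate was -0.97 with DMSO and -0.32 (adjusted p = 0.167) with CAY10566. Stearate did not pass against control (-0.18, adjusted p = 0.298).

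The makeup of the ligand pool was also set side by side. The 4 ligands summed to 59.2 ± 6.01 TPM in control, 40.01 ± 4.15 TPM in stearate and 60.3 ± 2.56 TPM in oleate (SD, n = 6 for each). SEMA3A made up 15.3% ± 1.81 of the sum in control, 8.40% ± 0.727 in stearate and 17.9% ± 2.27 in oleate, with stearate samples at 7.30 to 9.32% and no other sample under 12.5%. SEMA3F made up 47.4% of the sum in control, 50.0% in stearate and 44.5% in oleate, and SEMA3C made up 6.18% in control, 7.82% in stearate and 9.07% in oleate. These shares are a description, since the choice of SEMA3A fixes part of them.

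**Figure D2:**
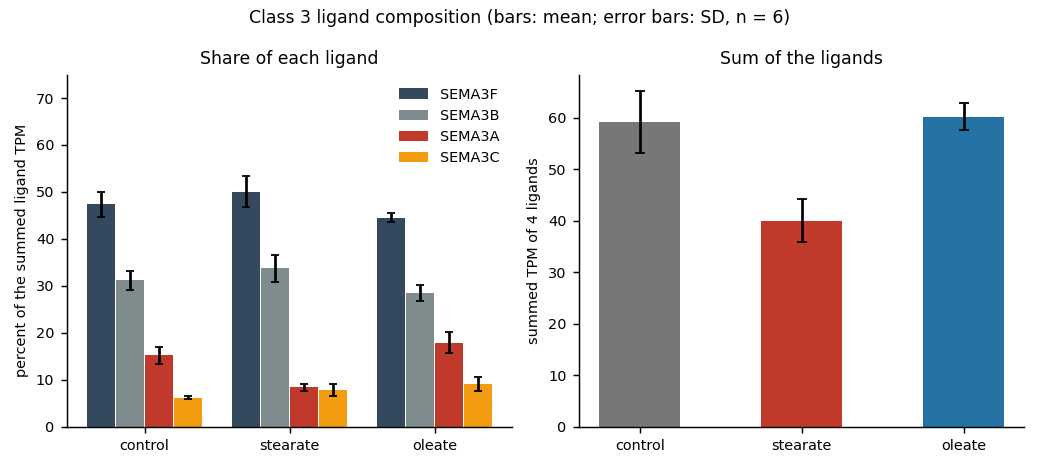
Left, percent of the summed ligand TPM taken by each ligand in control, stearate and oleate; right, the sum of the 4 ligands in TPM. Bars are means and error bars SD over 6 samples; the SEMA3A share is 15.3% in control, 8.40% in stearate and 17.9% in oleate, and the sum is lowest in stearate at 40.01 TPM.

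NRP1, the neuropilin for SEMA3A and a VEGF coreceptor, was higher with oleate. The 6 control samples ran from 77.76 to 103.04 TPM with a median of 81.5 TPM, the stearate samples from 73.32 to 100.7 TPM with a median of 92.5 TPM, and the oleate samples from 92.44 to 109.97 TPM with a median of 101.3 TPM. The ranges overlapped in each pair of groups, and the control sample at 103.04 TPM was CAY10566 replicate 3. Oleate exceeded control by 0.25 (SE 0.07; limma, adjusted p = 0.02), by less than 25%, and the call was lost with no filter on TPM, with size factors (below) and within the CAY10566 samples. Stearate passed neither against control (0.08, adjusted p = 0.449) nor against oleate (-0.16, adjusted p = 0.122).

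NRP2, the neuropilin for SEMA3F, was higher with stearate. The DMSO replicates were at 7.22, 7.36 and 7.85 TPM and the CAY10566 replicates at 7.15, 8.39 and 9.58 TPM, against 12.12, 9.36 and 10.59 TPM in stearate+DMSO and 10.76, 9.13 and 11.98 TPM in stearate+CAY10566. The lowest stearate samples lay within the control range because of CAY10566 replicate 3 alone, the next highest control sample being at 8.39 TPM. The difference was 0.38 (SE 0.13; limma, adjusted p = 0.0416), and it passed only narrowly: it was lost when any of 9 of the 18 libraries was left out (DMSO replicates 1, 2 and 3, CAY10566 replicates 1 and 2, stearate+DMSO replicates 1 and 3, and stearate+CAY10566 replicates 1 and 3), with adjusted p up to 0.0916. It was also lost with no filter on TPM (adjusted p = 0.104), with size factors (0.0636), with the DMSO samples only (0.0686) and with the CAY10566 samples only (0.317). Oleate did not pass against control (0.16, adjusted p = 0.376), and 1 oleate+DMSO replicate at 14.93 TPM stood far above the other oleate samples at 7.08 to 8.94 TPM. Without that replicate, oleate differed from control by 0.03 (adjusted p = 0.871) and stearate was above oleate by 0.36 (adjusted p = 0.00903), against 0.22 (adjusted p = 0.235) with it. NRP1 thus exceeded NRP2 in TPM by a mean ratio of 10.7 in control, 8.50 in stearate and 11.5 in oleate.

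PLXNA1, the most abundant of the A-type plexins that signal with neuropilins, was higher with oleate. The oleate samples ran from 46.12 to 55.89 TPM (median 51.3 TPM), the control samples from 32.95 to 53.23 TPM (median 37.4 TPM) and the stearate samples from 30.96 to 43.98 TPM (median 36.8 TPM). All oleate samples were above all stearate samples, and above all control samples but CAY10566 replicate 3. Oleate exceeded control by 0.40 (SE 0.10; limma, adjusted p = 0.00735), or by 0.50 (adjusted p = 0.000135) without that replicate, and stearate was below oleate by a difference of -0.44 (adjusted p = 0.00348), or -0.43 (adjusted p = 0.0639) with the CAY10566 samples only. Stearate against control gave -0.04 (adjusted p = 0.827), or 0.06 without that replicate, which did not pass either.

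PLXNA2, a close relative of PLXNA1, showed the same direction with oleate at a lower level. The oleate samples had a lowest, median and highest level of 7.13, 7.78 and 9.90 TPM and the control samples of 5.27, 5.79 and 8.57 TPM, with 5 of the 6 control samples below every oleate sample. The difference was 0.33 (SE 0.10; limma, adjusted p = 0.0209). It was 0.41 (adjusted p = 0.00112) without CAY10566 replicate 3, and it did not pass without DMSO replicate 2 (adjusted p = 0.0551) or without oleate+DMSO replicate 3 (adjusted p = 0.0556), with no filter on TPM (adjusted p = 0.052), with size factors (adjusted p = 0.0687) or with the CAY10566 samples only (0.08). Stearate against oleate gave -0.27 (adjusted p = 0.0578), which passed with the DMSO samples only (-0.44, adjusted p = 0.0279), without CAY10566 replicate 3 (adjusted p = 0.0193), a control sample that enters here only through the shared estimate of the spread, or without stearate+CAY10566 replicate 2 (adjusted p = 0.0387).

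PLXNA3 was the most variable of the 10 genes and was higher with either fatty acid. The control samples ran from 4.76 to 8.98 TPM. The stearate replicates were at 10.12, 15.46 and 7.23 TPM with DMSO and 20.51, 9.25 and 8.88 TPM with CAY10566, and the oleate replicates at 12.71, 9.80 and 23.32 TPM with DMSO and 11.15, 8.30 and 7.98 TPM with CAY10566. The lowest samples of both fatty acid groups lay within the control range. The differences from control were 0.74 for stearate (SE 0.24; limma, adjusted p = 0.0351) and 0.77 for oleate (SE 0.24; adjusted p = 0.0245), and the fatty acids did not differ detectably from each other (-0.03, adjusted p = 0.957).

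Both PLXNA3 calls rested on few samples. The stearate call was lost without DMSO replicate 2 or 3, CAY10566 replicate 1 or 2, stearate+DMSO replicate 1 or 2, or stearate+CAY10566 replicate 1, with adjusted p of 0.0517 to 0.0826 and a smallest difference of 0.58. The oleate call was lost without DMSO replicate 2 or 3 or oleate+DMSO replicate 3, with adjusted p of 0.052 to 0.0597 and a smallest difference of 0.58. Both were also lost with no filter on TPM (adjusted p = 0.0949 and 0.07) and with the CAY10566 samples only (0.72, adjusted p = 0.239, and 0.36, adjusted p = 0.634), the stearate call with the DMSO samples only (adjusted p = 0.126) and the oleate call with size factors (adjusted p = 0.0507). PLXNA3 overlaps LAGE3, a gene on the opposite strand at a mean of 21.1 TPM. The library kit keeps strand, but whether the quantification used it is not given in the sources used here, so reads of the pair may have been shared.

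PLXND1, a receptor for SEMA3C and for SEMA3E, passed no comparison. Its 18 samples ran from 11.73 to 16.1 TPM, and its differences were -0.03 for stearate (adjusted p = 0.768) and 0.10 for oleate (adjusted p = 0.292) against control. Its coefficient of variation over all 18 samples, 9.77%, was the smallest of the 10 genes, and that of PLXNA3, 49.5%, was the largest.

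**Figure D3:**
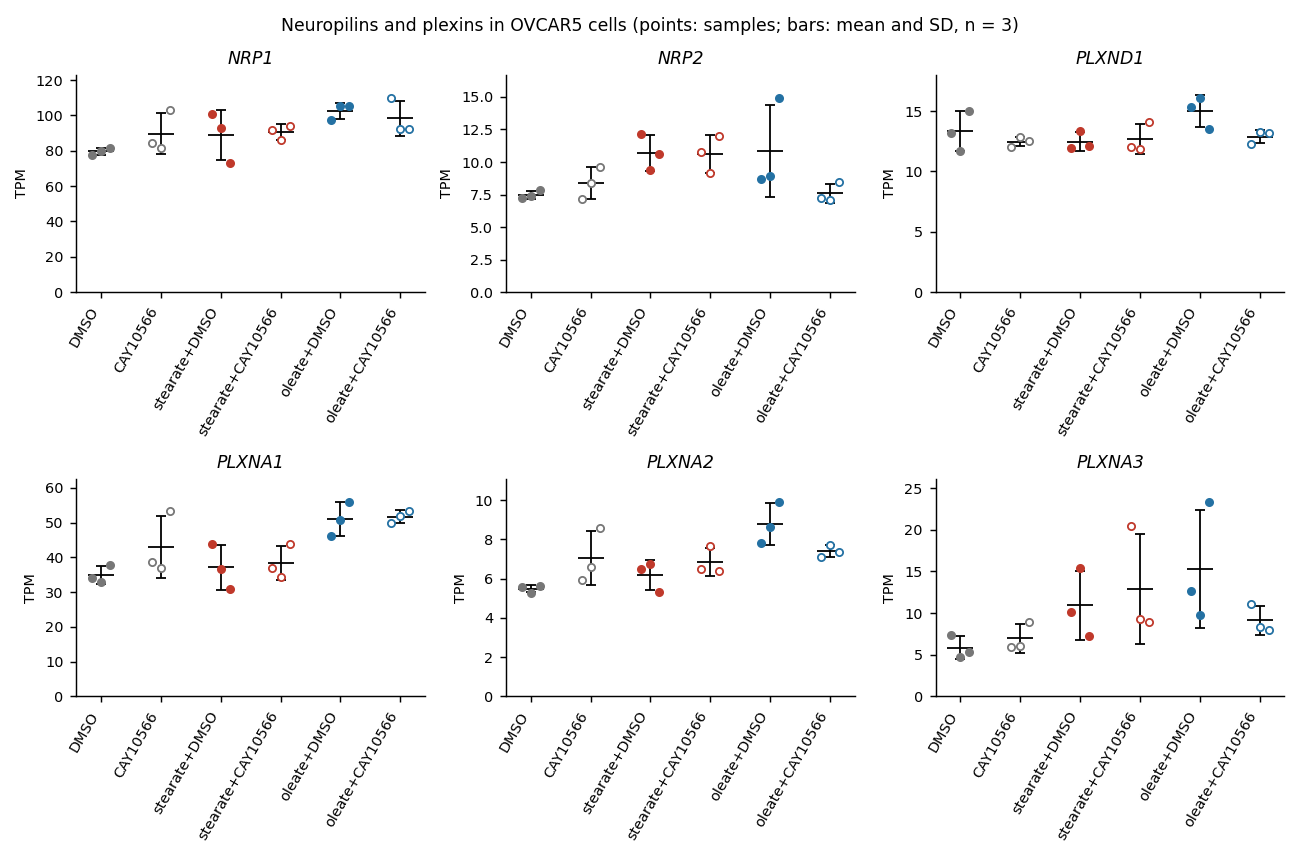
Expression of the 2 neuropilins and 4 plexins (vertical axes, TPM from 0) in the 6 conditions; points are samples, filled with DMSO and open with CAY10566, and bars give the mean and SD of 3 replicates. PLXNA1 is above 46 TPM in the 6 oleate samples, NRP2 is above 9 TPM in the 6 stearate samples, and single high samples set the wide bars of PLXNA3 and of NRP2 with oleate+DMSO.

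Across the 9 family members tested for stearate against control, 2 were higher (NRP2, PLXNA3) and 2 lower (SEMA3B, SEMA3F) at an adjusted p under 0.05, all 4 of them by more than 25% (higher group over lower group, on TPM + 1). Among all tested genes 19.4% passed and 5.35% also differed by more than 25%. The median difference of the 9 was -0.03, against 0.06 over all genes. SEMA3F alone of the 9 had groups that did not overlap, as did 7.79% of all genes. For oleate against control 5 of 10 passed, all higher (SEMA3C, NRP1, PLXNA1, PLXNA2 and PLXNA3) and 4 of them by more than 25%. Among all genes 25.7% passed (23% higher with oleate, 2.7% lower), and 6.9% also differed by more than 25%. The median was 0.24, against 0.09 over all genes, and 0 of the 10 had groups without overlap (4.06% of all genes).

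For stearate against oleate 4 of 9 passed, all lower in stearate and by more than 25% (SEMA3B, SEMA3C, SEMA3F and PLXNA1). Among all genes 21.1% passed and 6.37% also differed by more than 25%. The groups of SEMA3C, SEMA3F and PLXNA1 did not overlap, as for 10.2% of all genes. These comparisons share samples and are not independent of each other. Without CAY10566 replicate 3 the counts were 4 for stearate against control, 6 for oleate against control and 5 for stearate against oleate, where 26.8%, 34.1% and 25% of all genes passed. With the CAY10566 samples only, 3 a group, they were 1, 0 and 1, where 4.75%, 0.109% and 7.66% of all genes passed. Rescaling each sample by median-of-ratios size factors, which ranged from 0.942 to 1.07, moved the median of all genes for oleate against control from 0.09 to -0.0036 and left 3 members passing there: SEMA3C and PLXNA1 higher, and SEMA3F, which passed only under this scaling, lower (-0.155, adjusted p = 0.0464).

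**Figure D4:**
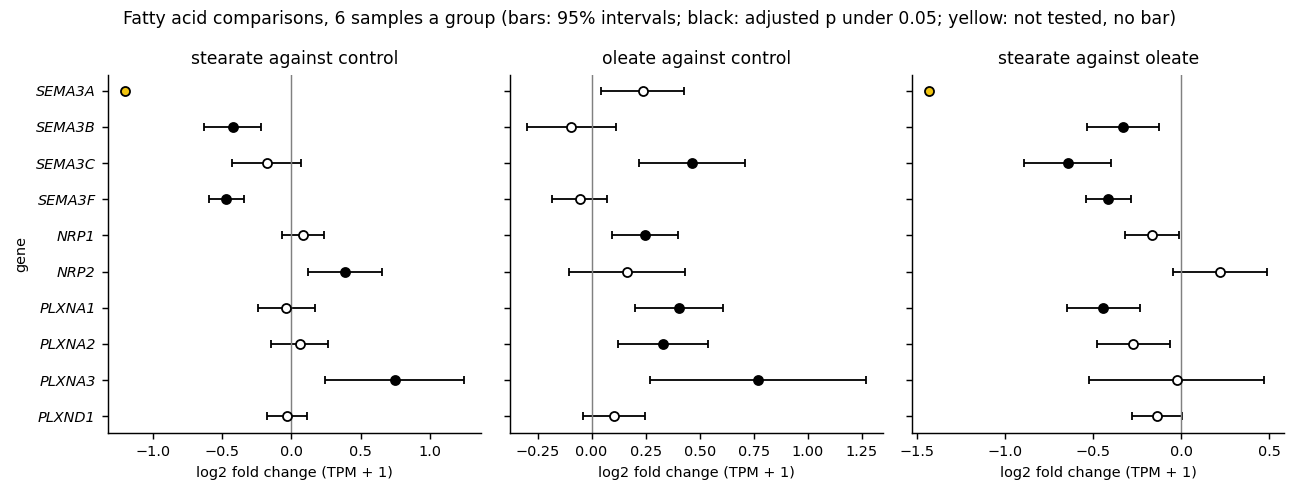
Difference of each gene on the log2(TPM + 1) scale for stearate against control, oleate against control and stearate against oleate, 6 samples a group. Points are estimates, bars 95% intervals, black points passed at an adjusted p under 0.05, and the yellow SEMA3A points (-1.20 and -1.43) were not tested; SEMA3B and SEMA3F lie below 0 in both stearate panels, and the neuropilins and plexins lie at or above 0 for oleate against control.

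For the inhibitor itself none of the 10 genes passed the test. Over 9 samples with the inhibitor and 9 without, 0 of 10 passed, as did 0% of all genes, and 1 of the 10 and 748 of all genes had an unadjusted limma p under 0.05. That gene was SEMA3A, at 0.16 higher (95% interval 0.02 to 0.30; adjusted p = 0.894). This fit includes the stearate samples on which SEMA3A was chosen. In the interaction of stearate with the inhibitor, SEMA3A is again only described, since it was chosen for its stearate values: the difference between the arms was -0.07. Of the other 9 genes 0 passed, with 0 at an unadjusted limma p under 0.05 against 1290 of all genes, and 0.00725% of all genes passed.

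The oleate differences were larger with DMSO than with CAY10566 for several members, without passing the test of that difference. Among all genes 24.2% passed for oleate with DMSO and 0.109% with CAY10566. SEMA3C exceeded its control by 0.72 (limma, adjusted p = 0.00324) with DMSO and by 0.21 (adjusted p = 0.482) with CAY10566. PLXNA2 exceeded it by 0.58 (adjusted p = 0.0045) with DMSO and gave 0.08 (adjusted p = 0.792) with CAY10566, and PLXNA1 gave 0.53 (adjusted p = 0.0109) and 0.28 (adjusted p = 0.377). SEMA3A was at 0.26 with DMSO and 0.22 with CAY10566. The test of the difference between arms gave -0.51 for PLXNA2 (95% interval -0.86 to -0.15; adjusted p = 0.449), -0.57 for NRP2 (-1.05 to -0.08; adjusted p = 0.459) and -0.50 for SEMA3C (-0.90 to -0.11; adjusted p = 0.449). These 3 of 10 had an unadjusted p under 0.05, as did 1415 of all genes, but 0 of 10 passed, as did 0% of all genes. The median over the 10 was -0.24, against -0.05 over all genes. CAY10566 replicate 3, high for 9 of the 10 genes, is 1 of the 3 samples that set the CAY10566 baseline. Without it the difference between arms was -0.37 for PLXNA2, -0.47 for NRP2 and -0.41 for SEMA3C (adjusted p = 0.768, 0.822 and 0.804), and without oleate+DMSO replicate 3 it was -0.33 for NRP2. For PLXNA3 the difference between arms was -0.83 (95% interval -1.81 to 0.15; limma, adjusted p = 0.528), or -0.49 without oleate+DMSO replicate 3.

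**Figure D5:**
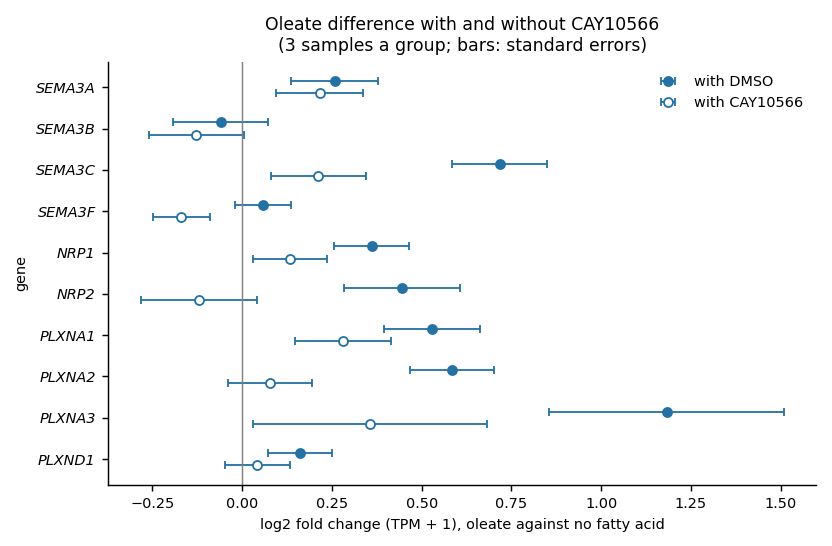
Difference of oleate from no fatty acid on the log2(TPM + 1) scale, with DMSO (filled) and with CAY10566 (open), 3 samples a group; bars are standard errors. SEMA3C (0.72 and 0.21), PLXNA2 (0.58 and 0.08) and PLXNA3 (1.18 and 0.36) are farther right with DMSO, while the SEMA3A points (0.26 and 0.22) nearly coincide. None of these differences between arms passed the test.

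The members' profiles over the 18 samples were compared by Pearson's r of log2(TPM + 1), given without a test since samples share their group. SEMA3A was most like SEMA3F (r = 0.865) among the other members, then SEMA3B (0.717) and SEMA3C (0.669), and ran against NRP2 (r = -0.518). NRP1 and PLXNA1 had r = 0.84. Among the 10141 other genes with a mean of at least 5 TPM, the closest to SEMA3A were ANKRD1 (r = 0.983), a cardiac ankyrin repeat protein and known YAP target, F3 (0.978), tissue factor of the clotting cascade, TM4SF1 (0.972), a tetraspanin-like surface protein, RTEL1 (0.967), a DNA helicase, and LRRC8A (0.967), a volume-regulated anion channel subunit. The genes most opposed were DHRS2 (r = -0.975), a reductase, SRXN1 (-0.966), sulfiredoxin, and CASP4 (-0.956), an inflammatory caspase. With the 3 group means removed, r with SEMA3A was 0.62 for ANKRD1, 0.527 for F3 and 0.445 to 0.544 for the other 3, so most of the likeness lay between groups.

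ANKRD1 averaged 74.9 TPM in control, 37.4 TPM in stearate and 89.8 TPM in oleate, and F3 averaged 372.2, 127.3 and 416 TPM. RTEL1 overlaps RTEL1-TNFRSF6B on the same strand, whose mean was 7.61 TPM, and LRRC8A overlaps KYAT1 on the opposite strand (8.91 TPM), so both values are uncertain. These genes were picked for their likeness to SEMA3A, so their differences carry no test.

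The RefSeq promoter table for GRCh38.p14 held 8 of the 10 genes, without SEMA3A and NRP1, and all 5 genes most like SEMA3A. The 250 bases upstream of the start are shown for SEMA3F (lower with stearate), SEMA3C (higher with oleate) and ANKRD1, whose levels tracked SEMA3A most closely. They lie at chr3:50154808-50155057 on the plus strand, chr7:80922390-80922639 on the minus strand and chr10:90921088-90921337 on the minus strand, and each is read on the strand of its gene. Capitals in ANKRD1 mark GGAATG, the core that TEAD factors bind, at 220 and 128 bases before the start, and the AP-1 form TGATTCA at 195 bases before it.
SEMA3F: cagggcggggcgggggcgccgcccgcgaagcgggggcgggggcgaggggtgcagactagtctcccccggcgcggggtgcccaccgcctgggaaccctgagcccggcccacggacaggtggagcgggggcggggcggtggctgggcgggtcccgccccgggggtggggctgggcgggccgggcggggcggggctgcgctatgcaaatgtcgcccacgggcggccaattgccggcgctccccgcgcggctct
SEMA3C: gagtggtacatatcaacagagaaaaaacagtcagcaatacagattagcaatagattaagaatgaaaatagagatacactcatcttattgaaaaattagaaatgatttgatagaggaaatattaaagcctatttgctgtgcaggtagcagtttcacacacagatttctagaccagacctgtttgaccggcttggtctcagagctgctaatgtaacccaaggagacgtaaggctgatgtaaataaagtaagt
ANKRD1: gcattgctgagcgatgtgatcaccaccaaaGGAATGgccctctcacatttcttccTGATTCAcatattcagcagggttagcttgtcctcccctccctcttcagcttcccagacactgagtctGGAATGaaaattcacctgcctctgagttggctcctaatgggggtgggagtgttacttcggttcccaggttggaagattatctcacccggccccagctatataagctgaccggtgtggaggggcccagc

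The windows differed in base composition. G and C made up 82% of the SEMA3F window, 36.4% of that of SEMA3C and 53.2% of that of ANKRD1, with a median of 58% over all 27303 windows of the table. A search on both strands covered the TEAD core GGAATG, the AP-1 site TGANTCA, the CREB site TGACGTCA, the EGR1 site GCGTGGGCG and the E-box CACGTG. None stood in the 8 member windows, which do not include SEMA3A or NRP1. Of all windows 11.9%, 6.6%, 1.77%, 0.711% and 6.49% held these sites in that order. Among the 5 genes most like SEMA3A, TEAD cores stood in ANKRD1 and TM4SF1, AP-1 sites in ANKRD1 and F3 and a CREB site in LRRC8A, and no site overlapped another. A match is a run of letters, not a bound site. The window of SEMA3B, which also fell with stearate, is not shown. It lies at chr3:50272869-50273118, inside the SEMA3B gene span given below.

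By GENCODE 44 on GRCh38, the SEMA3A gene spans chr7:83955777-84492724 on the minus strand and encodes 771 residues, and SEMA3C lies on the same chromosome and strand at chr7:80742538-80922359 (751 residues). SEMA3F is at chr3:50155045-50189075 (785 residues) and SEMA3B at chr3:50267558-50277546 (749 residues), both on the plus strand. Each of this pair overlaps an antisense gene, SEMA3F-AS1 at a mean of 0.242 TPM and SEMA3B-AS1 at 0.323 TPM. NRP1 is at chr10:33177492-33336262 on the minus strand and NRP2 at chr2:205681990-205798133 on the plus strand, and their proteins of 923 and 926 residues are about as long as each other. The plexins are larger, with 1896 residues for PLXNA1 (chr3:126982693-127037389, plus), 1894 for PLXNA2 (chr1:208022242-208244384, minus), 1871 for PLXNA3 (chrX:154458281-154477779, plus) and 1925 for PLXND1 (chr3:129555214-129606676, minus).

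The other genes of the pathway were counted by list, beside the 19.4%, 25.7% and 21.1% of all genes that passed for stearate against control, oleate against control and stearate against oleate. Of 17 semaphorins of other classes and their plexins 13 were tested. In stearate against control 1 was higher and 1 lower, in oleate against control 2 were higher, and in stearate against oleate 2 were lower. Thus 2 of 13 passed in each, beside 19.4%, 25.7% and 21.1% of all genes. SEMA7A, a membrane-anchored semaphorin, fell from 52.7 ± 5.74 TPM in control to 41.3 ± 3.35 TPM in stearate (SD, n = 6; difference -0.34, SE 0.07; limma, adjusted p = 0.00163) and was at 59.1 ± 4.44 TPM in oleate, so stearate was below oleate by a difference of -0.51 (adjusted p = 2.22e-05). Of 7 coreceptors and proprotein convertases, the enzymes that trim semaphorins, 4 were tested: 0 passed for stearate, 2 were higher with oleate and 1 was lower in stearate than in oleate.

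Of 7 VEGF ligands and receptors that share neuropilins 3 were tested, since VEGFC and the receptors FLT1, KDR and FLT4 were under 1 TPM. In each fatty acid comparison 1 of the 3 was lower and 0 higher, beside 19.4%, 25.7% and 21.1% of all genes that passed. VEGFB fell with stearate by a difference of -0.32 (adjusted p = 0.00459) and with oleate by a difference of -0.29 (adjusted p = 0.00757), and VEGFA was lower in stearate than in oleate (-0.27, adjusted p = 0.00109; limma). None of these 3 differences exceeded 25%.

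Of 29 genes of plexin signalling 24 were tested. In stearate against control 4 were higher and 3 lower, in oleate against control 7 higher and 1 lower, and in stearate against oleate 1 higher and 5 lower, that is 7, 8 and 6 of 24 beside 19.4%, 25.7% and 21.1% of all genes. Among all genes 23% were higher and 2.7% lower with oleate. The median of the 24 was 0.05, 0.12 and -0.07 in these comparisons, against 0.06, 0.09 and -0.03 over all genes. For CAY10566 against DMSO 0 genes of these lists passed, as did 0% of all genes.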

How the data were processed

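RNA sequencing of 18 OVCAR5 samples was analysed, with conditions and replicate numbers taken from the labels. The authors made TruSeq stranded mRNA libraries, trimmed reads with Trim Galore, aligned them with STAR 2.7.1a to GRCh38 and quantified genes with RSEM, and the deposited unit is TPM, per gene. TPM keeps no depth, so precision rests on the spread between replicates. One line that names no gene was left out; 56321 of 60483 gene identifiers (93.1%) had a symbol.

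Values were transformed to log2(TPM + 1) and the 13789 genes whose mean TPM was 1 or more were fitted with limma 3.58.1 in R 4.3.3 (lmFit, eBayes with a trend), with Benjamini-Hochberg adjustment over all of them. Fatty acid comparisons used 3 groups of 6; CAY10566 was tested in 9 against 9 samples with fatty acid as a covariate, and interactions in a model of 6 conditions. A gene passed at an adjusted p under 0.05, and a change of more than 25% is named where it applied. The fit was tested on simulated data. Figures were drawn with matplotlib 3.10.9.

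The members, the pathway lists and the tests were chosen with earlier results of these data known. The text names all members, the 5 genes most like and 3 most unlike SEMA3A, and listed pathway genes that passed and changed by more than 25%, except single genes of plexin signalling, which are not reported here. VEGFA and VEGFB were named after their values were seen, as were the libraries that stood apart. Alternatives were another pseudocount, other filters, no trend, size factors, a replicate block, CAY10566 as a covariate, each inhibitor arm alone and each sample left out.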

Additional observations from a re-analysis of the deposited data

Results flagged for a closer look

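In 30 groups of 6 samples (10 genes, 3 fatty acid groups), 5 had a sample whose gap to the nearest other, divided by the range of the group, was above Dixon's critical value of 0.625. The nominal rate of 1 in 20 is for independent groups, whereas these groups share samples. No share of flagged groups over all tested genes is available beside this count. CAY10566 replicate 3 was far above the other control samples for SEMA3B (22.95 TPM, gap over range 0.662), NRP1 (103.04 TPM, 0.728) and PLXNA1 (53.23 TPM, 0.722). It was the highest control sample for 40.4% of all tested genes. Oleate+DMSO replicate 3 was far above the other oleate samples for NRP2 (14.93 TPM, 0.763) and PLXNA3 (23.32 TPM, 0.692), and it was the highest oleate sample for 6 of the 10 genes and for 25.2% of all tested genes. The cause was not tested.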

How the results depend on the processing

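The numbers of members passing were 4 for stearate against control, 5 for oleate against control and 4 for stearate against oleate. They were 2, 2 and 3 with no filter on TPM (6.42%, 8.19% and 7.38% of all genes passed), 3, 3 and 4 with size factors (18%, 18.3% and 21.9%), 2, 5 and 5 with the DMSO samples only (14%, 24.2% and 8.98%), and 1, 0 and 1 with the CAY10566 samples only (4.75%, 0.109% and 7.66%), beside 19.4%, 25.7% and 21.1% as reported. With 1 sample left out they ranged from 2 to 4, from 3 to 6 and from 3 to 5. A replicate block gave 4, 5 and 4 and changed no member's call; same-numbered samples deviated together weakly (45 correlations of -0.18 to 0.103, median 0.012), so the numbers were not taken to pair samples. CAY10566 and both interactions gave 0 in each alternative run. Among all genes that passed and changed by more than 25%, size factors moved the share of higher genes from 64.6% to 41.7% for stearate against control, from 93.7% to 67.1% for oleate against control and from 25% to 38.7% for stearate against oleate. The depth of the libraries is unknown, and the causes of these differences were not tested.

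The log2 differences that changed sign passed a test neither as reported nor under the alternative, and that of SEMA3A in the stearate interaction is a description with no test. With the DMSO samples only these were PLXNA1 for stearate (0.0729) and SEMA3F for oleate (0.0582) against control. With the CAY10566 samples only they were PLXNA2 (-0.0237) and PLXND1 (0.0167) for stearate against control, NRP2 for oleate against control (-0.121) and PLXNA3 for stearate against oleate (0.367). With size factors they were PLXNA3 for stearate against oleate (0.0133) and in the stearate interaction (0.0147), and SEMA3A in the oleate interaction (0.0113). With 1 sample left out, the ranges were -0.0816 to 0.0553 for PLXNA1 and -0.0653 to 0.00828 for PLXND1 in stearate against control, and -0.19 to 0.168 for PLXNA3 in stearate against oleate. For CAY10566 against DMSO they were -0.034 to 0.067 for SEMA3C and -0.193 to 0.0623 for PLXNA3. In the stearate interaction they were -0.186 to 0.0348 for SEMA3A and -0.406 to 0.22 for PLXNA3, and in the oleate interaction -0.161 to 0.0593 for SEMA3A and -0.142 to 0.0643 for SEMA3B.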
